A study of Mus musculus with 16 samples.

Results

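The 10 genes described here act at the end of mitosis and in the division of the cell: Ube2c, Cdc20 and Cdca3, partners of the anaphase-promoting complex or of other mitotic ubiquitin ligases, Birc5 and Tpx2 on chromosomes and spindle, and Prc1, Ect2, Racgap1, Anln and Cep55 in cytokinesis. They were taken by symbol from a list chosen with earlier results of these data known, and they make up 10 of the 18193 genes measured, through 22 probe sets that the array annotation gives to one of these symbols alone. Where a gene has several probe sets, the brightest on average across the 16 arrays leads. The cultures were airway epithelium from C57BL/6 mice, kept at an air-liquid interface, in 4 groups of 4: Mmp7-/- scratched, Mmp7-/- uninjured, wild-type scratched and wild-type uninjured, with 1 expression array per culture. Mmp7 encodes matrilysin, a secreted metalloproteinase. The Mmp7-/- cultures are called Mmp7-null below. Scratched cultures received 3 scratches, and all 4 groups were kept without serum for 24 h before RNA was isolated. The labels give neither the age of the mice, nor the time between scratch and harvest, nor which cultures came from the same animal or a pool of animals, so p-values reflect no more than the spread among these 16 cultures.

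The anaphase-promoting complex, or APC/C, is a ubiquitin ligase that ends mitosis by marking cyclin B and securin for destruction. Cdc20 activates it and Ube2c is the enzyme that hands it ubiquitin. After the chromosomes part, the central spindle and an actin ring pinch the cell at its middle, and the bridge between the daughters is then cut. In resting airway epithelium few cells divide, and injury brings surviving cells back into the cell cycle.

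Genes of this late phase are commonly switched on together through a promoter element called CHR, which is bound by the MuvB complex, often with CCAAT boxes beside it. The RefSeq promoter windows of mouse assembly GRCm38.p6, which run from 250 bases before to 50 bases after an annotated start, matched 9 of the 10 members (all but Tpx2), in 12 windows. These windows were searched on both strands for CHR (TTTGAA or TTCGAA), for CCAAT and for an E2F site (TTTNNCGC). None of the 3 motifs contains another. CHR letters were found in 8 of the 9 members and in 11 of their 12 windows, against 19.2% of all 32851 windows in the table. CCAAT was found in 6 of the 9 members and 8 of the 12 windows, against 37.4% of all windows, and both motifs together in 6 of 9 members and 8 windows, against 7.52%. The E2F letters occurred in 1 of the 9 members, Racgap1, against 5.17% of all windows. The Birc5 window held none of the 3 motifs. A match describes letters in a window and does not show that a factor binds there.

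Promoter windows of 5 members are shown as examples. Ube2c had the largest response to scratching, and Cdc20 and Prc1 rose in both genotypes, as did Anln, Birc5 and Tpx2, which are not shown. For Cep55 and Cdca3 the difference between the responses of the 2 genotypes passed the test, close to its threshold. All 5 windows shown hold a CHR match, and the Birc5 window without one is not among the windows shown. Each is written 5′ to 3′ along the strand of the gene, and capitals mark CHR and CCAAT letters, which read TTCAAA and ATTGG where the match lies on the other strand. The windows are chr2:164769679-164769978 (plus strand) for Ube2c, chr4:118437294-118437593 (minus strand) for Cdc20, chr7:80294226-80294525 (plus strand) for Prc1, chr6:124829926-124830225 (plus strand) for Cdca3 and chr19:38054791-38055090 (plus strand) for Cep55; for Prc1 and Cep55 the more downstream of 2 annotated starts is shown.
Ube2c: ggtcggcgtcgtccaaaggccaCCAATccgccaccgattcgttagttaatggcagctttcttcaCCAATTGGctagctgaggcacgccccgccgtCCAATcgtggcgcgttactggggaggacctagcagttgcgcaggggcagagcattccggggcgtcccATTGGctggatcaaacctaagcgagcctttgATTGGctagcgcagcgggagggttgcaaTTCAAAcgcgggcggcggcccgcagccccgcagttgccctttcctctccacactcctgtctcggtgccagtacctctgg
Cdc20: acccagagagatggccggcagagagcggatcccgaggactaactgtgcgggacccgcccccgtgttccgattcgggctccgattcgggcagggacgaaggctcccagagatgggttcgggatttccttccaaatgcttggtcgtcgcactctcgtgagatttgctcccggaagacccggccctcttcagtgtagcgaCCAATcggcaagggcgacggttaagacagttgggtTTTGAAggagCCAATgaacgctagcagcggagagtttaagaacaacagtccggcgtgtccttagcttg
Prc1: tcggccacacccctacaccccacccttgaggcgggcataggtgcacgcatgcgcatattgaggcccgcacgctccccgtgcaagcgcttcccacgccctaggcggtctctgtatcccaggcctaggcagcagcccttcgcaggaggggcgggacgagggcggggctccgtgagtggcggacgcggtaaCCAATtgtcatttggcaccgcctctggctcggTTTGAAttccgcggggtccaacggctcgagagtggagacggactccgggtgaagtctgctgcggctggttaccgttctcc
Cdca3: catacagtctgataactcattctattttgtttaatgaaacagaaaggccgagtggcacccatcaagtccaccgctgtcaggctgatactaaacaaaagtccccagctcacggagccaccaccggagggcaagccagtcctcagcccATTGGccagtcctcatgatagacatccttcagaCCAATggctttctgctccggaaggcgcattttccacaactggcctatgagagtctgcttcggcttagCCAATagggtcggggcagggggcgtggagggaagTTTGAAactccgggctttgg
Cep55: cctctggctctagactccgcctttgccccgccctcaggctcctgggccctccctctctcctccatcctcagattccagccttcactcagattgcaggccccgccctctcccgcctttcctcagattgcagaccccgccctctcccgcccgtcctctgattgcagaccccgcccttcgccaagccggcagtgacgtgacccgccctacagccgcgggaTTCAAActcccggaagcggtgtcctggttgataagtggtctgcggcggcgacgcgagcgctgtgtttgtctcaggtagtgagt
The CHR of Ube2c begins 29 bases upstream of the start and that of Cdc20 18 bases upstream. In the Prc1 window shown it begins 30 bases upstream, with a CCAAT at 62 bases upstream, and 5 and 37 bases upstream of the other start. Cep55 has its CHR 33 bases upstream of the start shown, which is 25 bases downstream of the other start, and no CCAAT. In Cdca3 the CHR lies downstream of the start, with CCAAT boxes at 4, 71 and 104 bases upstream. Ube2c holds 6 CCAAT matches.

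Values are log2 intensities made from the authors' RMA-normalized linear table, and a difference of 1 is a factor of 2. Signals of control transcripts absent from an array gave a background bound of 2.97, the 95th percentile, and 11655 genes had a mean above it, all 10 members among them. Each array was assigned to a set by the spiked-in bacterial control with the highest mean signal. The sets are named Lys (4 arrays), Phe (6) and Trpn (6) after that control, and the labels do not say what they stand for. Within Mmp7-null the Lys and Phe sets, and within wild-type the Phe and Trpn sets, were spread evenly over scratched and uninjured cultures, but the genotypes share only the Phe set, with 2 arrays in each Mmp7-null group and 1 in each wild-type group. Genotype differences are therefore also given blocked on the set. Arrays 3 and 4 of scratched wild-type and array 1 of scratched Mmp7-null stood apart in signal or RNA quality, with upper quartiles of 6.85 and 6.90 for wild-type 3 and Mmp7-null 1 and an actin 3′ to 5′ gap of 2.62 for wild-type 4, against at most 1.93 elsewhere, and results are given without these 3 arrays as well. The only probe set for Mmp7 read 2.13 to 2.59 in all 16 arrays, below the background bound in both genotypes, so it does not check the genotype labels.

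Scratching raised most of the 10 genes in both genotypes. In Mmp7-null cultures 8 of 10 members passed the test as higher in scratched than in uninjured cultures and 0 as lower, where 2.27% of all genes were called higher and 2.45% lower (limma, Benjamini-Hochberg adjustment over all genes, threshold 0.05). In wild-type cultures all 10 were called higher, against 2.55% of all genes called higher and 2.3% lower. The members' median log2 fold change was 0.61 in Mmp7-null cultures, with a range of 0.32 to 1.58, and 1.23 in wild-type cultures, with a range of 0.82 to 2.13; the median over all genes was -0.02 in Mmp7-null and 0.01 in wild-type cultures. All 4 scratched cultures lay above all 4 uninjured cultures for 8 members in Mmp7-null and for 10 in wild-type, where 4.1% and 4.21% of all genes were separated in that direction. These are bulk cultures, so more dividing cells and more RNA per dividing cell cannot be told apart. The counts were 8 and 10 again without the 3 arrays that stood apart.

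**Figure D1:**
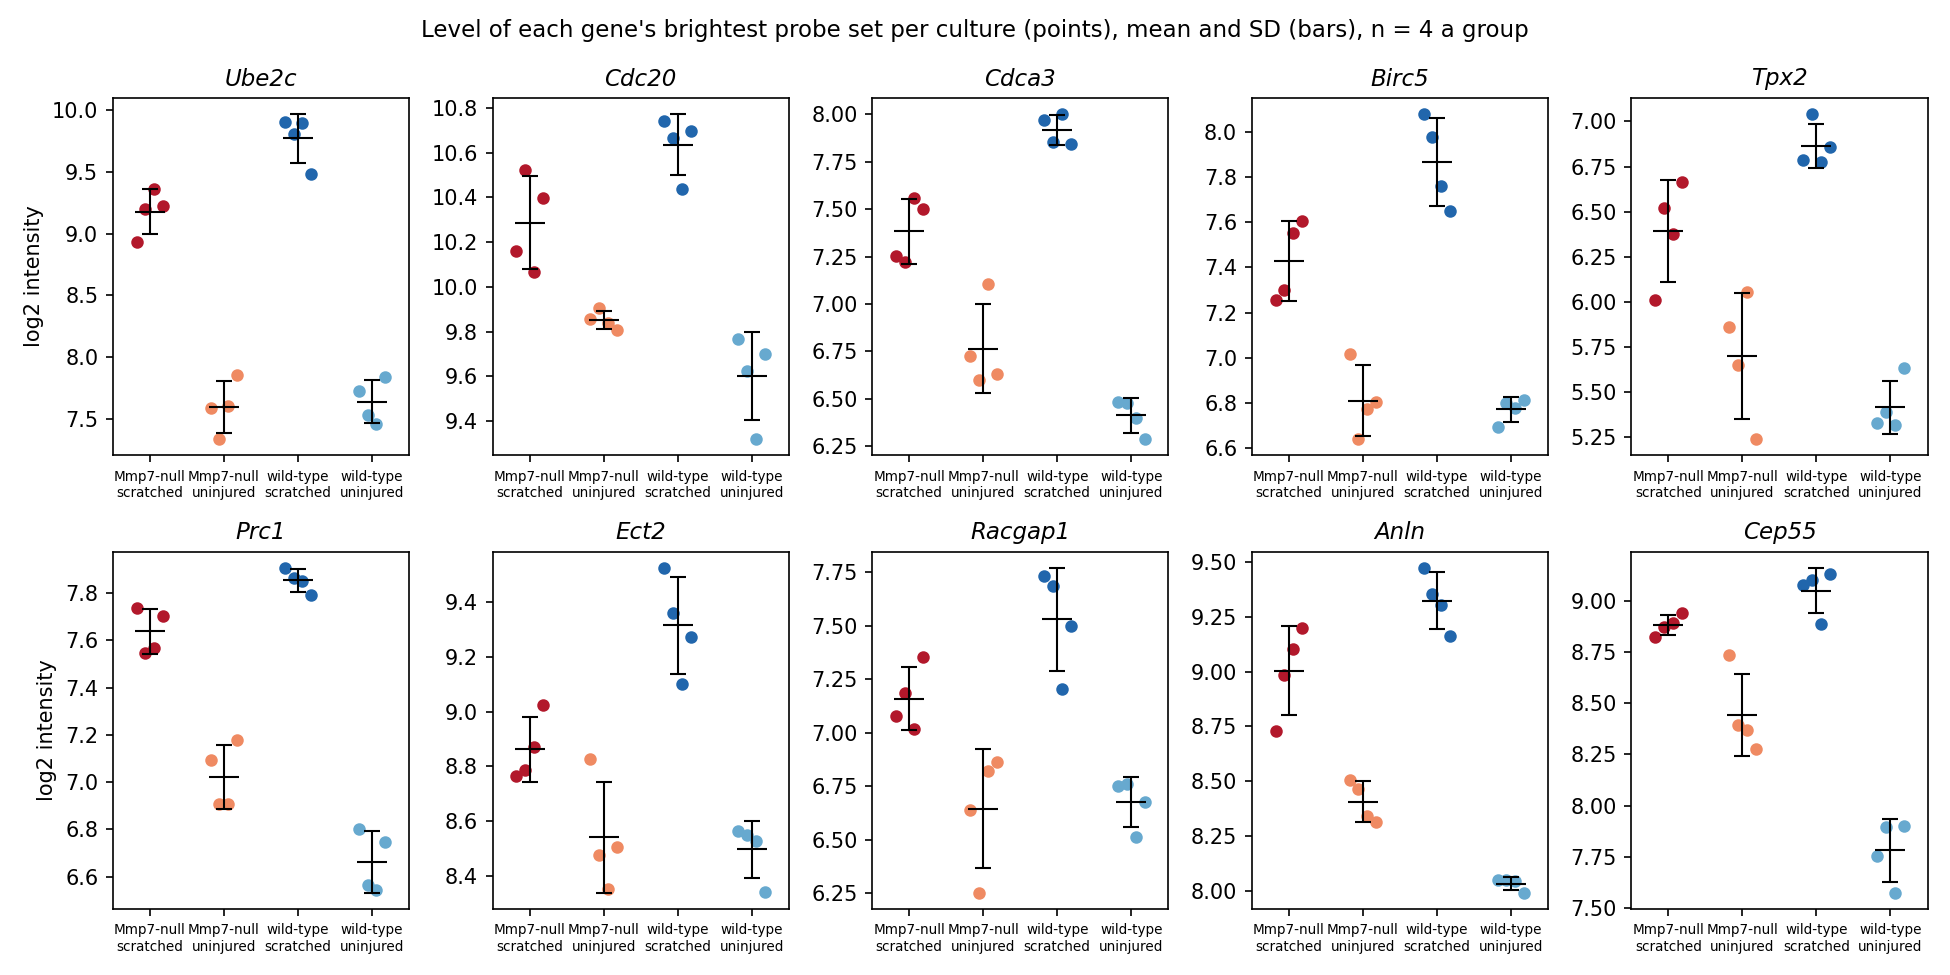
Log2 intensity (vertical axis, a separate range per panel) of the brightest probe set of each of the 10 genes in each of the 16 cultures, by group; points are cultures and bars the mean and SD of 4. Scratched wild-type cultures had the highest mean for all 10 genes and scratched Mmp7-null cultures the next, for example 9.77 and 9.18 for Ube2c.

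The order of the 4 group means was nearly the same for every member. Scratched wild-type was highest and scratched Mmp7-null next for all 10. Uninjured Mmp7-null came next and uninjured wild-type last for 8 members, and the last places were exchanged for Ube2c and Racgap1. Neighbours in that order did not always separate: the top pair overlapped for Cdc20, Cep55, Anln and Racgap1, the middle pair for Ect2 and Tpx2, and the bottom pair for Ube2c, Ect2, Birc5, Racgap1 and Tpx2. Only Prc1 and Cdca3 had 4 groups with no overlap between any neighbours.

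Among the partners of the ubiquitin ligases, Ube2c had the largest response of the 10 genes. Its single probe set, 1452954_at, read 8.93, 9.20, 9.36 and 9.23 in scratched Mmp7-null cultures, against 7.58, 7.34, 7.60 and 7.86 in uninjured Mmp7-null cultures. In scratched wild-type cultures it read 9.90, 9.81, 9.89 and 9.48, against 7.72, 7.53, 7.46 and 7.84 in uninjured wild-type cultures. The scratched cultures stood clearly above the uninjured ones in either genotype, while the uninjured cultures of the genotypes covered the same range. Ube2c rose 3.00-fold in Mmp7-null cultures (log2 1.58, SE 0.13, adjusted p = 2.47e-05) and 4.39-fold in wild-type cultures (log2 2.13, SE 0.13, adjusted p = 5.81e-07). Every scratched Mmp7-null culture lay below every scratched wild-type culture, and the difference between these groups passed the test at -0.59 (SE 0.13, adjusted p = 0.0138).

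Cdc20, the APC/C activator that the spindle checkpoint holds back, was led by probe set 1439377_x_at. It read 10.16, 10.52, 10.07 and 10.40 in scratched Mmp7-null cultures, against 9.86, 9.90, 9.84 and 9.81 in uninjured Mmp7-null cultures. Scratched wild-type cultures gave 10.74, 10.67, 10.44 and 10.70, against 9.77, 9.62, 9.32 and 9.70 in uninjured wild-type cultures. Scratched and uninjured cultures did not overlap in either genotype, but the gap was narrow in Mmp7-null. Its log2 fold change was 0.44 in Mmp7-null (SE 0.11, adjusted p = 0.0359) and 1.03 in wild-type cultures (SE 0.11, adjusted p = 5.93e-05). The Mmp7-null call was lost on leaving out any of 6 single arrays, all 4 of uninjured Mmp7-null and scratched Mmp7-null 2 and 4 (adjusted p up to 0.0851).

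The x in the name of the leading Cdc20 set marks probes that can match other transcripts. The second set, 1416664_at, carries no such mark and gave a tighter picture of the gene. It read 9.40, 9.54, 9.56 and 9.62 in scratched Mmp7-null cultures, against 8.85, 8.83, 8.97 and 8.92 in uninjured Mmp7-null cultures. Scratched wild-type cultures gave 9.92, 9.76, 9.79 and 9.90, against 8.56, 8.52, 8.34 and 8.62 in uninjured wild-type cultures. Here the 4 groups did not overlap at all. All 5 comparisons passed for this set, with p-values adjusted over all 34945 probe sets of a single symbol: scratching changed it by 0.64 in Mmp7-null (adjusted p = 0.00018) and 1.33 in wild-type (adjusted p = 1.57e-07), and the responses differed by -0.69 (adjusted p = 0.0124). Its remaining set, 1439394_x_at, was dim at a mean of 3.85 and passed in none.

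Cdca3, also called Tome-1 and known as an F-box-like trigger of the destruction of the mitosis-inhibiting kinase Wee1, had 1 set above background, 1452040_a_at. It read 7.25, 7.22, 7.56 and 7.50 in scratched Mmp7-null cultures, against 6.72, 6.60, 7.10 and 6.63 in uninjured Mmp7-null cultures. In scratched wild-type cultures the values were 7.97, 7.85, 8.001 and 7.84, against 6.48, 6.48, 6.40 and 6.29 in uninjured wild-type cultures. Scratched wild-type cultures were highest and uninjured wild-type cultures lowest, with both Mmp7-null groups between them and no overlap. The change with scratching was 0.62 in Mmp7-null (SE 0.11, adjusted p = 0.00468) and 1.51 in wild-type cultures (SE 0.11, adjusted p = 1.98e-06). The responses differed by -0.89 (SE 0.15, 95% interval -1.21 to -0.56, adjusted p = 0.0434). The other 2 sets of Cdca3 lay at 1.86 and 1.80, below background, and passed in no comparison.

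On chromosomes and spindle, Birc5 (survivin), the subunit that brings the chromosomal passenger complex to centromeres, was measured by 1424278_a_at alone. It read 7.26, 7.30, 7.55 and 7.61 in scratched Mmp7-null cultures, against 7.02, 6.64, 6.77 and 6.81 in uninjured Mmp7-null cultures. Scratched wild-type cultures gave 8.08, 7.98, 7.76 and 7.65, against 6.69, 6.80, 6.78 and 6.82 in uninjured wild-type cultures. The uninjured groups overlapped, and all scratched Mmp7-null cultures lay below all scratched wild-type cultures by a narrow gap. Birc5 rose by 0.62 in Mmp7-null (SE 0.10, adjusted p = 0.00458) and by 1.09 in wild-type cultures (SE 0.10, adjusted p = 3.07e-05).

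Tpx2 activates the kinase Aurora A on the spindle and is itself destroyed through the APC/C at mitotic exit. Its leading set, 1428104_at, read 6.01, 6.52, 6.38 and 6.67 in scratched Mmp7-null cultures, against 5.86, 5.65, 6.05 and 5.24 in uninjured Mmp7-null cultures. The values were 6.79, 7.04, 6.78 and 6.86 in scratched wild-type cultures, against 5.33, 5.39, 5.32 and 5.63 in uninjured wild-type cultures. The Mmp7-null groups overlapped by 1 scratched culture, number 1, while the wild-type groups lay far apart. Tpx2 rose by 0.69 in Mmp7-null (SE 0.16, adjusted p = 0.0284) and by 1.45 in wild-type cultures (SE 0.16, adjusted p = 0.000114). Leaving out any of 5 single arrays ended the Mmp7-null call (uninjured 2 and 4 and scratched 2, 3 and 4 of Mmp7-null; adjusted p up to 0.0748), as did blocking on spike-in set (adjusted p = 0.052). Its second set, 1428105_at, with a mean of 5.18, gave 0.60 and 0.52 in Mmp7-null and wild-type cultures and did not pass in either (adjusted p = 0.17 and 0.249), and 2 more sets lay below background at 2.44 and 2.24.

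In the central spindle, Prc1 bundles the antiparallel microtubules between the parting chromosomes. Its leading set, 1423774_a_at, read 7.74, 7.55, 7.57 and 7.70 in scratched Mmp7-null cultures, against 7.09, 6.91, 6.91 and 7.18 in uninjured Mmp7-null cultures. In scratched wild-type cultures it read 7.91, 7.87, 7.85 and 7.79, against 6.80, 6.56, 6.54 and 6.75 in uninjured wild-type cultures. The scratched wild-type cultures were close together and topped every other culture, and the uninjured wild-type cultures lay below every other culture. Prc1 had the smallest standard error of the 10, and rose by 0.62 in Mmp7-null (SE 0.07, adjusted p = 0.000416) and by 1.19 in wild-type cultures (SE 0.07, adjusted p = 6.87e-07). A second set, 1423775_s_at, with a mean of 6.41, gave 0.63 in Mmp7-null (adjusted p = 0.062, not past the threshold) and 1.38 in wild-type cultures (adjusted p = 0.000336).

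Ect2, the exchange factor that switches on RhoA at the cell's middle, had 1 set, 1419513_a_at. It read 8.77, 8.79, 8.87 and 9.02 in scratched Mmp7-null cultures, against 8.82, 8.48, 8.35 and 8.51 in uninjured Mmp7-null cultures. Scratched wild-type cultures gave 9.52, 9.36, 9.10 and 9.27, against 8.56, 8.55, 8.53 and 8.34 in uninjured wild-type cultures. An uninjured Mmp7-null culture, number 1, lay among the scratched Mmp7-null cultures. The change was 0.32 in Mmp7-null, which did not pass (SE 0.10, 95% interval 0.10 to 0.55, adjusted p = 0.107), and 0.82 in wild-type cultures, which did (SE 0.10, adjusted p = 0.000323). Without uninjured Mmp7-null 1 the Mmp7-null change was 0.42 and passed (adjusted p = 0.0306).

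Racgap1, the GTPase-activating subunit of centralspindlin and the partner of Ect2, read 7.08, 7.18, 7.02 and 7.35 in scratched Mmp7-null cultures, against 6.64, 6.25, 6.82 and 6.86 in uninjured Mmp7-null cultures (set 1421546_a_at). The readings were 7.73, 7.68, 7.20 and 7.50 in scratched wild-type cultures, against 6.75, 6.76, 6.51 and 6.68 in uninjured wild-type cultures. Scratched cultures lay above uninjured cultures in both genotypes. The change of 0.51 in Mmp7-null missed the threshold (SE 0.14, 95% interval 0.22 to 0.81, adjusted p = 0.0508, and 0.0418 and 0.0331 without uninjured Mmp7-null 4 or scratched wild-type 3), and that of 0.85 in wild-type passed (SE 0.14, adjusted p = 0.0022). Set 1451358_a_at, with a mean of 6.68, likewise gave 0.57 in Mmp7-null (adjusted p = 0.0703) and 1.07 in wild-type cultures (adjusted p = 0.00125), and its remaining set lay below background at 2.47.

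At the actin ring and the bridge, Anln (anillin) links actin, myosin and septins. Its set 1433543_at read 8.73, 8.98, 9.10 and 9.20 in scratched Mmp7-null cultures, against 8.51, 8.47, 8.34 and 8.31 in uninjured Mmp7-null cultures. Scratched wild-type cultures read 9.47, 9.36, 9.30 and 9.16, against 8.05, 8.05, 8.05 and 7.99 in uninjured wild-type cultures. The uninjured wild-type cultures were nearly equal to each other and below all other cultures. Anln rose by 0.60 in Mmp7-null (SE 0.09, adjusted p = 0.00174) and by 1.29 in wild-type cultures (SE 0.09, adjusted p = 1.5e-06). A dim second set, 1439648_at, with a mean of 4.04, passed in no comparison.

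Cep55 recruits the machinery that cuts the bridge. Its set 1452242_at read 8.82, 8.87, 8.89 and 8.94 in scratched Mmp7-null cultures, against 8.73, 8.40, 8.37 and 8.28 in uninjured Mmp7-null cultures. In scratched wild-type cultures it read 9.08, 9.10, 8.89 and 9.13, against 7.75, 7.89, 7.58 and 7.90 in uninjured wild-type cultures. Scratched Mmp7-null 3 and scratched wild-type 3 were at the same level, the uninjured Mmp7-null cultures came below the scratched ones, and the uninjured wild-type cultures lay well below all others. Cep55 rose by 0.44 in Mmp7-null (SE 0.09, adjusted p = 0.0172) and by 1.27 in wild-type cultures (SE 0.09, adjusted p = 2.77e-06), a difference between responses of -0.83 (SE 0.13, 95% interval -1.12 to -0.54, adjusted p = 0.0365). The Mmp7-null call was lost without uninjured Mmp7-null 2 or 3 (adjusted p up to 0.0566). A second set, 1453683_a_at, was dim at a mean of 3.48 and passed in no comparison.

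**Figure D2:**
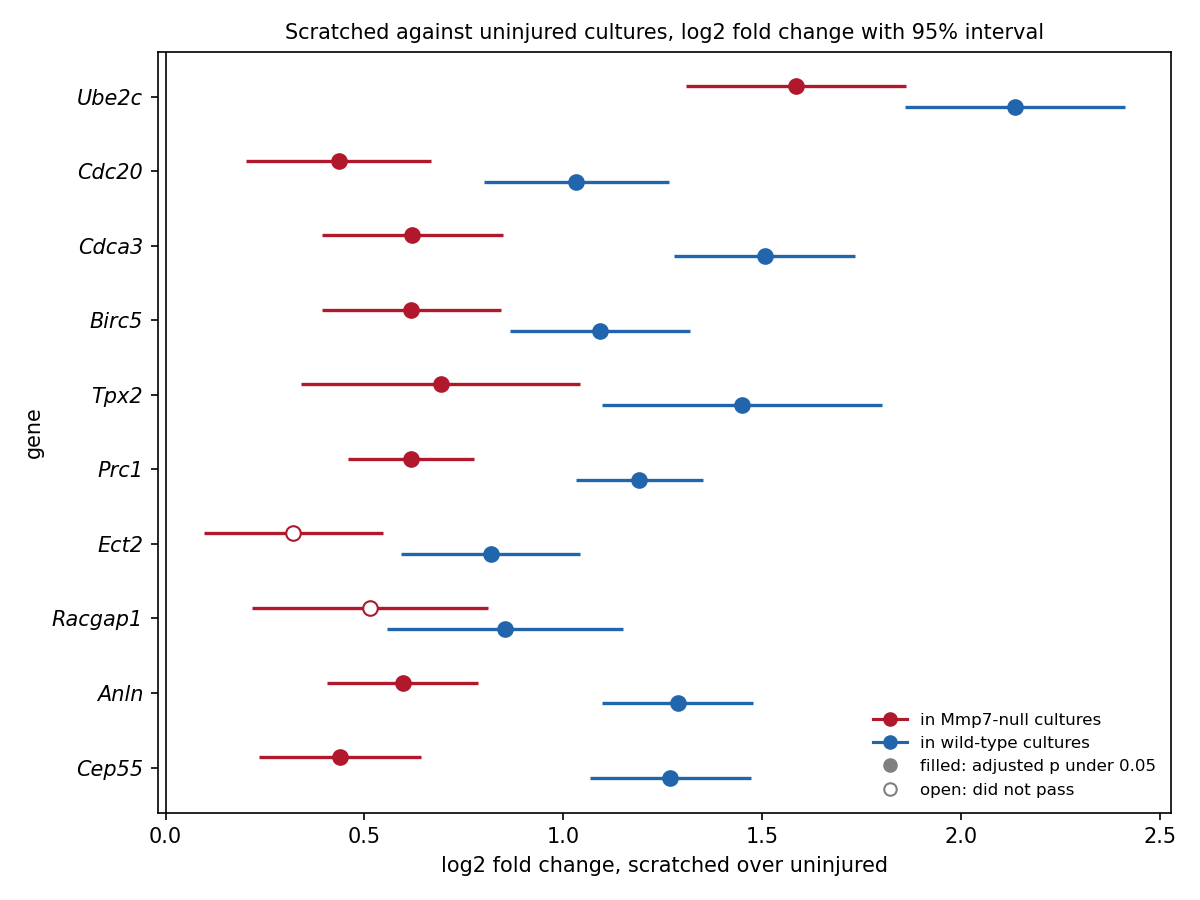
Log2 fold change of scratched over uninjured cultures (horizontal axis) with its 95% interval for each gene, in Mmp7-null (upper of each pair) and wild-type cultures (lower of each pair), 4 cultures a group. Filled points passed at an adjusted p under 0.05; Ect2 and Racgap1 in Mmp7-null did not, and all 10 estimates were smaller in Mmp7-null than in wild-type cultures.

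By their leading probe sets, the response to scratching was smaller in Mmp7-null than in wild-type cultures for all 10 members, by a median of -0.59 on the log2 scale (range -0.89 to -0.34), where 64.1% of all genes had a difference below 0 and their median was -0.03. The difference itself passed the test for 2 members, Cep55 and Cdca3, against 0.104% of all genes called lower (19 genes) and 0.0275% called higher. Anln missed the threshold at -0.69 (adjusted p = 0.0531) and Prc1 at -0.57 (adjusted p = 0.0541). For the other 6 the adjusted p lay between 0.202 and 0.717, and the interval excluded 0 for each except Racgap1, whose difference was -0.34 (95% interval -0.76 to 0.08). Both calls were close to the threshold: leaving out single arrays, Cep55 passed in 5 of 16 fits (adjusted p up to 0.0882) and Cdca3 in 3 of 16 (adjusted p up to 0.0919). Blocking on spike-in set keeps the sizes by construction, and Cep55 and Cdca3 had adjusted p = 0.0551 and 0.0693. Without the 3 arrays that stood apart Cep55 was at -0.85 (adjusted p = 0.0729), Cdca3 at -0.84 (adjusted p = 0.123) and Anln at -0.69 (adjusted p = 0.0213). Within the Phe set alone the members' median difference was -0.68, again with all 10 below 0.

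In scratched cultures every member was lower in Mmp7-null than in wild-type by its leading probe set. The median was -0.40, where the median of all genes was -0.04. The test called 5 members lower and 0 higher, against 2.92% of all genes lower and 3.29% higher: Ube2c at -0.59, Cdca3 at -0.53 (SE 0.11, adjusted p = 0.00802), Ect2 at -0.45 (SE 0.10, adjusted p = 0.0195), Birc5 at -0.44 (adjusted p = 0.0241) and Anln at -0.32 (adjusted p = 0.049). The estimates for Tpx2 (-0.47), Racgap1 (-0.37), Cdc20 (-0.35), Prc1 (-0.22) and Cep55 (-0.17) did not pass, and their adjusted p lay between 0.0804 and 0.287. The second Cdc20 set, 1416664_at, did pass at -0.31 (adjusted p = 0.0154 over all single-symbol sets), but it was not fitted with the spike-in block. The second Tpx2 set, 1428105_at, showed no lower level, at 0.03 (SE 0.205, adjusted p = 0.926). All scratched Mmp7-null cultures lay below all scratched wild-type cultures for 6 members, where 28.5% of all genes did, so this separation was common across the array. Leaving out single arrays, Ube2c and Cdca3 passed in 16 of 16 fits and Anln in 2 of 16. The Ect2 and Birc5 calls were each lost without any of 4 arrays, scratched Mmp7-null 1 or 2 and scratched wild-type 1 or 2 (adjusted p up to 0.0588 for Ect2 and 0.0756 for Birc5).

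When these fits were blocked on spike-in set, the median was -0.47 and only Ect2 passed, at -0.66 (adjusted p = 0.0389), while Ube2c at -0.58 had adjusted p = 0.113 and Cdca3 at -0.54 had adjusted p = 0.115. Within the Phe set, with 2 Mmp7-null arrays and 1 wild-type array, the median was -0.52, all 10 members were lower and none passed. Set and genotype thus cannot be told apart outside the Phe set. Without the 3 arrays that stood apart 4 members passed, all but Cdca3 of the 5 named (-0.49, adjusted p = 0.101).

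In uninjured cultures 3 members were higher in Mmp7-null than in wild-type and 0 lower, against 2.3% of all genes higher and 2.5% lower: Cep55 by 0.66 (SE 0.09, adjusted p = 0.00133), Anln by 0.37 (SE 0.09, adjusted p = 0.0268) and Prc1 by 0.36 (SE 0.07, adjusted p = 0.0126). The other cytokinesis members, Ect2 (0.04) and Racgap1 (-0.03), did not pass. Cdca3 at 0.35 (adjusted p = 0.0808), Tpx2 at 0.28 (adjusted p = 0.49) and Cdc20 at 0.25 (adjusted p = 0.27) did not pass. The second Cdc20 set did at 0.38 (adjusted p = 0.0053), but it was not fitted with the spike-in block. Ube2c, Ect2, Birc5 and Racgap1 had estimates between -0.04 and 0.04, with 95% intervals that reached no further than -0.33 and 0.27. All 4 uninjured Mmp7-null cultures lay above all 4 uninjured wild-type cultures for 5 members, where 5.44% of all genes did. When blocked on spike-in set, none of the 3 passed: Cep55 was at 0.60 (adjusted p = 0.0905), Anln at 0.27 (adjusted p = 0.571) and Prc1 at 0.23 (adjusted p = 0.498). Within the Phe set the values were 0.57, 0.28 and 0.24, and none passed. The Anln call was also lost on leaving out single arrays of either uninjured group; it passed in 10 of 16 such fits, with adjusted p up to 0.0941.

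**Figure D3:**
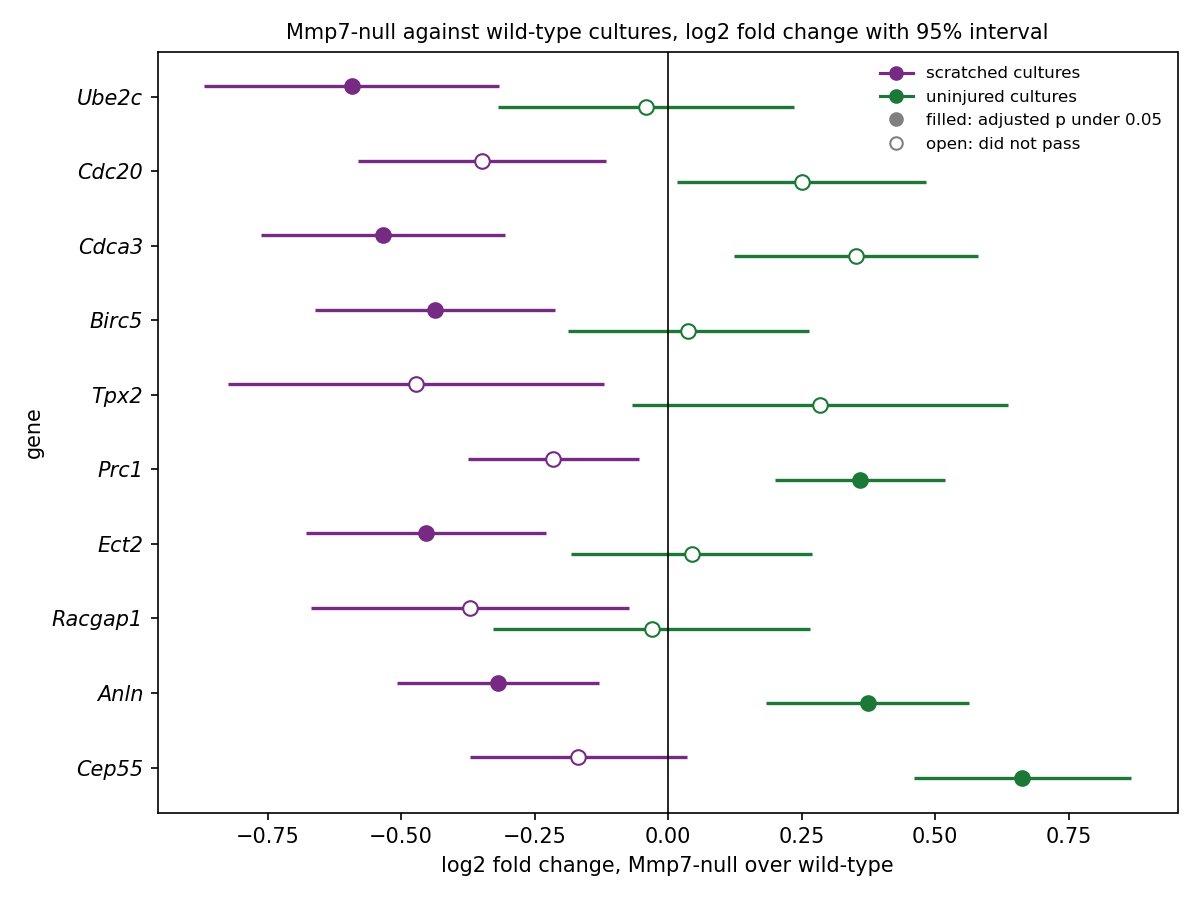
Log2 fold change of Mmp7-null over wild-type cultures (horizontal axis) with its 95% interval for each gene, in scratched (upper of each pair) and uninjured cultures (lower of each pair), 4 cultures a group; filled points passed at an adjusted p under 0.05. By the leading probe sets, scratched-culture estimates lie below 0 for all 10 genes, and uninjured-culture estimates above 0 for 8.

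The members can be followed together as the mean of their centred log2 values, a description with no test of its own. This mean was 0.28 ± 0.12 in scratched Mmp7-null, -0.36 ± 0.09 in uninjured Mmp7-null, 0.67 ± 0.10 in scratched wild-type and -0.59 ± 0.07 in uninjured wild-type cultures (SD, n = 4 each). The groups did not overlap: the values ran from 0.14 to 0.42 in scratched Mmp7-null, -0.48 to -0.26 in uninjured Mmp7-null, 0.58 to 0.78 in scratched wild-type and -0.69 to -0.55 in uninjured wild-type cultures. With group means removed, the 45 pairs of members had correlations over the 16 arrays with a median of 0.26 and a range of -0.34 to 0.74, and 39 were above 0. Anln and Birc5 varied most alike (r = 0.74) and Prc1 and Tpx2 least (r = -0.34). Birc5 followed the mean of the other 9 most closely (r = 0.75) and Prc1 least (r = 0.19). Points of such a correlation share arrays and their scaling.

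**Figure D4:**
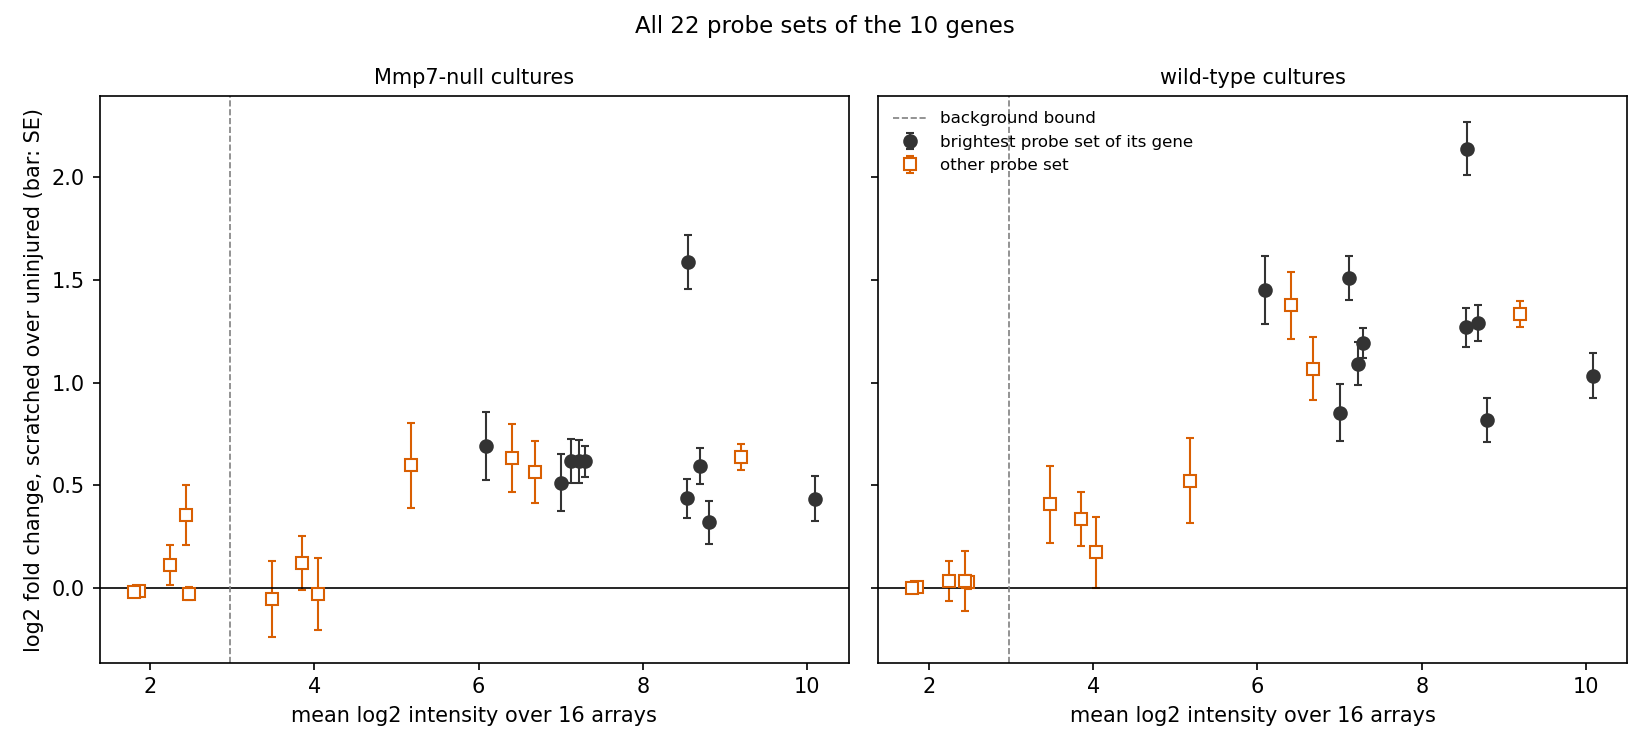
Log2 fold change of scratched over uninjured cultures (vertical axis, bars are SE) against mean log2 intensity over 16 arrays (horizontal axis) for all 22 probe sets, in Mmp7-null (left) and wild-type cultures (right); filled circles are the brightest set of each gene and open squares the other sets. None of the 5 sets below the dashed background bound at 2.97 passed the test.

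Of the 22 probe sets, 17 had a mean above background, and the 5 below it belong to Cdca3, Racgap1 and Tpx2. Among all 22, 8 were called higher with scratching in Mmp7-null and 13 in wild-type cultures, where 1.32% and 1.59% of all single-symbol sets were. The second sets of Cdc20, Prc1 and Racgap1 rose with scratching in wild-type cultures, and that of Tpx2 (0.52, mean 5.18) did not pass. The Tpx2 sets also differed in the response difference, which was 0.07 (SE 0.29) for the second set and -0.76 (SE 0.23) for the leading one, neither past the threshold. Dim sets, with means of 3.48 to 4.04, passed in none of the comparisons.

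Other genes of the same phase were read from lists drawn up from general knowledge with earlier results known. With each gene counted once, the 192 list genes had 15 higher and 4 lower in Mmp7-null and 25 higher and 4 lower in wild-type cultures, where 2.27% and 2.55% of all genes were higher and 2.45% and 2.3% lower. At such shares a count of 0 or 1 in a single list of 11 to 40 genes is near that of all genes. Of the core APC/C subunits, 0 of 14 rose and 1 fell in Mmp7-null (Anapc11, -0.27), and 1 rose and 0 fell in wild-type cultures (Anapc1, 0.22, which was -0.16 as the mean of its probe sets), with list medians of -0.06 and -0.02. Of 12 regulators of the APC/C, 0 passed in Mmp7-null, while in wild-type cultures 2 rose, the checkpoint genes Bub1b (1.29, adjusted p = 0.000207) and Mad2l1 (0.83, adjusted p = 7.45e-05), and 1 fell, the ubiquitin-conjugating enzyme Ube2d1 (-0.32). Of 17 measured APC/C substrates, 8 rose and 0 fell in each genotype. The cyclin Ccnb2 rose by 1.23 in Mmp7-null and 2.03 in wild-type cultures, the mitotic kinase Plk1 by 1.26 and 1.62, and the spindle protein Nusap1 by 0.87 and 1.66. Bub1b in Mmp7-null was at 0.41 and did not pass (adjusted p = 0.173).

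Of 22 central spindle and ring genes, 5 rose and 1 fell in Mmp7-null and 6 rose and 0 fell in wild-type cultures. The risers in both were the mitotic kinesins Kif20a (1.03 in Mmp7-null and 1.61 in wild-type), Kif23, the motor subunit of centralspindlin (0.88 and 1.58) and Kif20b (0.68 and 1.06), with the formin Diaph3 (0.68 and 1.14). Rhoa fell in Mmp7-null by 0.15 (adjusted p = 0.0343). Of 6 genes of the passenger complex and its shugoshin partners, 3 rose in each genotype, among them Incenp (0.63 and 0.70) and Cdca8 (0.54 and 1.11), both in the complex with Birc5. Sgo2a, a protector of centromeric cohesion, was 0.61 higher in Mmp7-null than wild-type uninjured cultures, and its responses differed by -0.66 (SE 0.10, adjusted p = 0.0249). Of 19 genes of the abscission machinery that Cep55 recruits, mostly ESCRT subunits, 0 rose and 1 fell in either genotype (Chmp5 by -0.23 in Mmp7-null, Pdcd6ip by -0.34 in wild-type), with medians of -0.10 and -0.03, counts near the share of all genes called.

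Among 19 spindle assembly genes linked to Tpx2, 1 rose in Mmp7-null (Hmmr, 0.92) and 5 in wild-type cultures, Hmmr by 1.63, Tacc3 by 1.15, Aurka by 0.93, Kif11 by 0.56 and Kpna2 by 0.50. Aurka, the kinase that Tpx2 activates, was also 0.81 higher in uninjured Mmp7-null than uninjured wild-type cultures (adjusted p = 0.00243, and 0.74 with adjusted p = 0.144 when blocked on spike-in set). Of 18 phosphatase genes for mitotic exit, 0 rose and 1 fell in Mmp7-null (Ppp6c, -0.33), and 1 rose and 1 fell in wild-type cultures (Cdca2, 1.36, and Ppp2r5a, -0.18). Of 11 genes of separase and cohesin, Espl1 (separase) alone rose, by 0.93 in Mmp7-null and 1.25 in wild-type cultures. Of 23 cell cycle regulators of the DREAM, MuvB-MYB and E2F group, 0 passed in Mmp7-null and 1 rose in wild-type cultures (E2f2, 0.49). Foxm1, which activates late cell cycle genes, was dim at a mean of 3.36, with changes of 0.13 and 0.12 that did not pass, and Mybl2 lay below background. Of 40 G1/S and replication genes, 0 rose in either genotype and 1 fell in wild-type (Mcm2, -0.48), with medians of -0.08 and -0.11. Blocking on spike-in set ended the list calls of Kif20b and Rhoa in Mmp7-null (adjusted p = 0.0552 and 0.0555). It also ended those of Anapc1, Ube2d1, Ppp2r5a, E2f2 and Mcm2 in wild-type (adjusted p from 0.0501 to 0.0861). Without the 3 arrays that stood apart, Diaph3 in Mmp7-null did not pass (adjusted p = 0.0566). Nor did Anapc1, Ube2d1, Pdcd6ip, Kif11 and Mcm2 in wild-type (adjusted p from 0.0528 to 0.183). At an unadjusted limma p under 0.05, Mmp7-null cultures had 2 higher and 2 lower among the APC/C regulators, 2 and 2 among the DREAM group, 0 and 4 among the replication genes, 1 and 5 among the abscission genes, 1 and 4 among the phosphatases and 0 and 1 among the core subunits. In wild-type cultures the replication genes had 1 higher and 7 lower, and the abscission genes 1 and 3. The regulators had 2 and 2 there, the DREAM group 1 and 4, the phosphatases 2 and 3 and the core subunits 2 and 2. In Mmp7-null cultures the substrates had 8 and 0, the central spindle list 8 and 1 and the passenger complex list 3 and 0. Spindle assembly genes had 3 and 1, and separase and cohesin genes 1 and 1. In wild-type cultures these lists had, in that order, 13 and 0, 11 and 2, 6 and 0, 7 and 1, and 4 and 1. The share of all genes at this unadjusted threshold was not counted, so these counts only describe the lists.

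**Figure D5:**
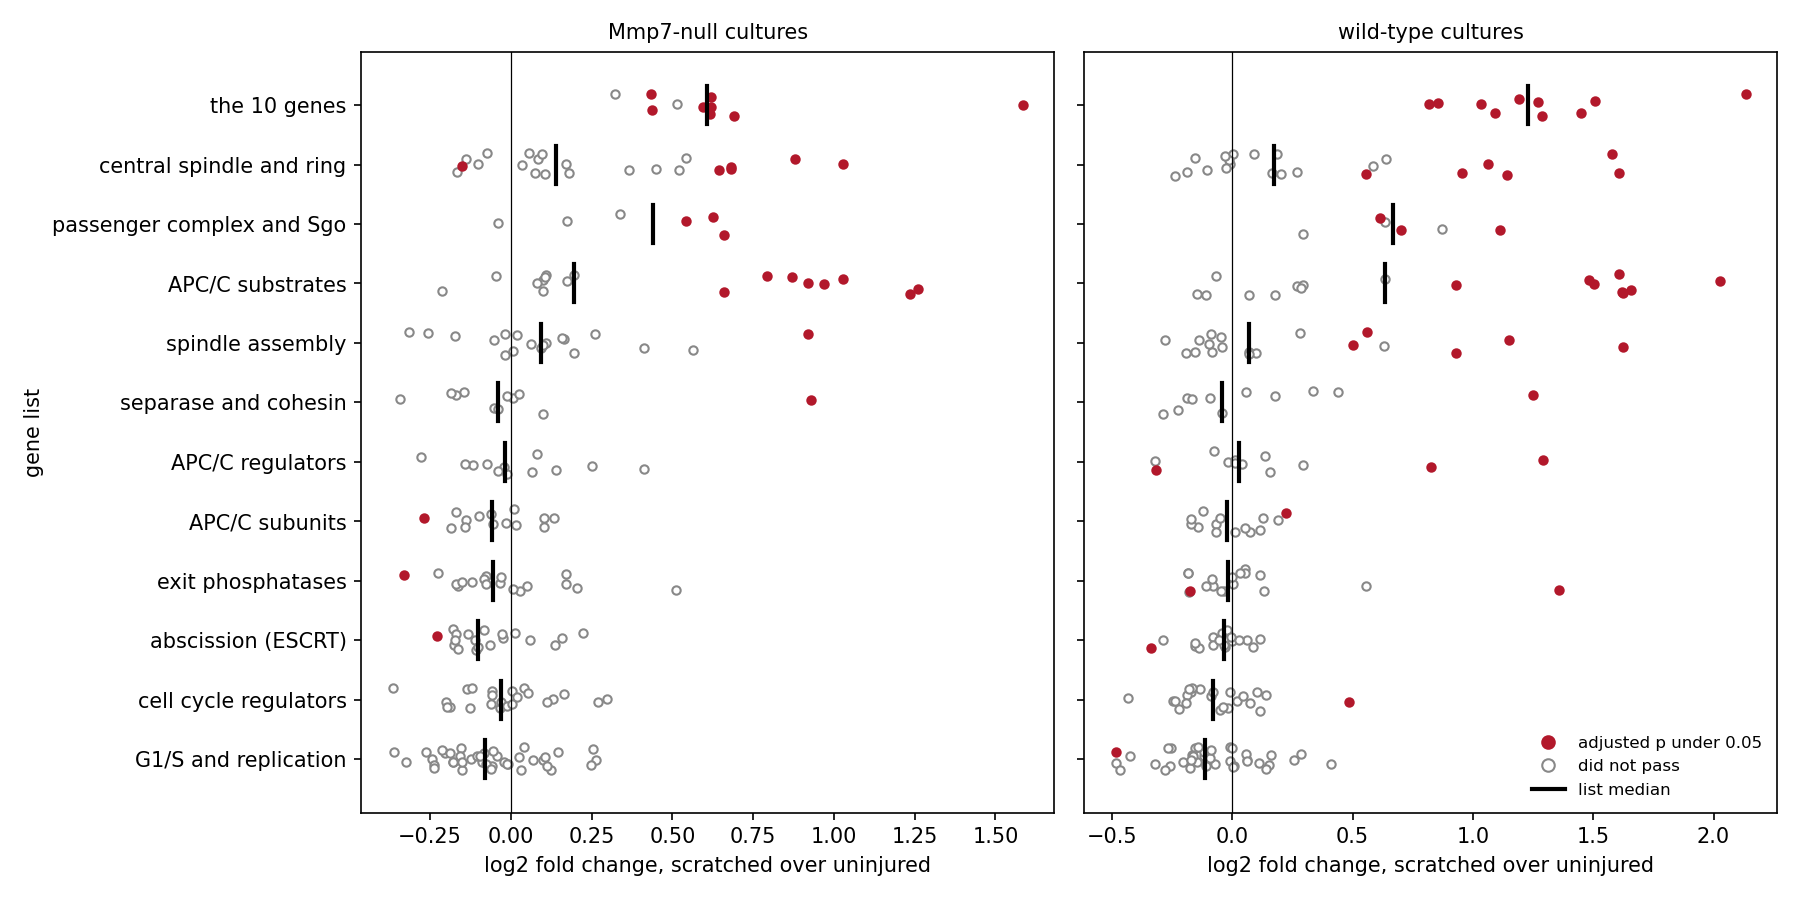
Log2 fold change of scratched over uninjured cultures (horizontal axis) for the 10 genes and for the members of the related lists (rows), in Mmp7-null (left) and wild-type cultures (right); filled points passed at an adjusted p under 0.05, open points did not, and black bars are medians. The 10 genes have medians of 0.61 and 1.23, and the lists of APC/C subunits, abscission and replication have medians between -0.11 and -0.02.

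Between genotypes, the 192 list genes had 4 higher and 5 lower in scratched Mmp7-null than in scratched wild-type cultures, and 6 higher and 1 lower in uninjured Mmp7-null than in uninjured wild-type cultures, shares near those of all genes (3.29% higher and 2.92% lower in scratched, 2.3% and 2.5% in uninjured cultures). In scratched cultures the genes lower in Mmp7-null were Ccnb2 (-0.49), Cdca8 (-0.39), E2f2 (-0.52), Rhoa (-0.16) and the phosphatase subunit Ppp2r5a (-0.20). Those higher were Nek2, a centrosome kinase (0.38), E2f7 (0.59), the phosphatase Cdc14b (0.35) and the replication factor subunit Rfc2 (0.41). Their adjusted p lay between 0.0191 and 0.0499, and between 0.0982 (E2f7) and 0.451 (Rfc2) when blocked on spike-in set. In uninjured cultures Aurka (0.81), Sgo2a (0.61), Nek2 (0.54), the cohesin partner Pds5a (0.53), the primase subunit Prim2 (0.46) and Arhgap11a, a RhoA regulator (0.41), were higher in Mmp7-null and Ppp2r5a was lower (-0.20). Under the block their adjusted p lay between 0.0565 (Sgo2a) and 0.374 (Ppp2r5a).

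Over the 16 arrays, the pattern most like the mean of the 10 members among 11645 other genes above background was that of Ccnb2 (r = 0.985). Kif23, Kif22, Knstrn, Cenpa, Cdca8 and Nusap1, all mitotic genes, were also among the nearest 10, with r between 0.973 and 0.978. The other 3 were Agr2 (r = 0.978), a disulfide isomerase of mucin-making cells, Fabp5 (r = 0.976), a fatty acid carrier, and Edn1 (r = 0.973), the precursor of a vasoactive peptide. With group means removed, r was 0.67 for Ccnb2 and 0.73 for Nusap1, against 0.33 for Agr2, 0.22 for Fabp5 and 0.31 for Edn1, and 0.47 to 0.61 for the other 5. These correlations have no p, since the points share arrays and groups.

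Markers of cell types moved as well, and their part in the results above was not tested. With scratching, 2.27% of all genes were called higher and 2.45% lower in Mmp7-null, and 2.55% and 2.3% in wild-type cultures. All 8 defining markers of airway epithelium were above background. Of 17 multiciliated markers, 13 were higher in Mmp7-null than wild-type uninjured cultures and 15 in scratched cultures, against 2.3% and 3.29% of all genes. The summed linear intensity of these markers was 29370 to 32430 in scratched and 27150 to 30780 in uninjured Mmp7-null cultures. In wild-type cultures it was 19440 to 21940 in scratched and 20030 to 22290 in uninjured ones. Of 10 basal markers, 2 fell with scratching in Mmp7-null and 3 in wild-type cultures (Krt5 by -0.45 and -0.81), with sums of 21520 to 25130 in scratched against 28680 to 30220 in uninjured Mmp7-null cultures, and 25420 to 26510 in scratched against 26930 to 30270 in uninjured wild-type cultures. Of 13 leukocyte markers, 0 passed with scratching in Mmp7-null and 2 rose in wild-type (Cd68 and Cd14), with sums of 19000 to 21090 in scratched against 15160 to 18550 in uninjured Mmp7-null cultures, and 19730 to 23470 in scratched against 15320 to 18490 in uninjured wild-type cultures. At least 8 of them were at background in every group, Ptprc among them. A linear sum follows its brightest genes. The leukocyte sums were nearly all Cd14 and Lyz2, with mean log2 levels of 13.34 and 13.25 in scratched Mmp7-null cultures. Cd68, the next brightest, was at 6.71 there. Of 14 fibroblast markers, 1 rose with scratching in Mmp7-null (Dcn) and 2 in wild-type (Dcn and Acta2), with sums of 495 to 820 in scratched against 290 to 462 in uninjured Mmp7-null cultures, and 282 to 417 in scratched against 183 to 225 in uninjured wild-type cultures. Col1a1, Col1a2, Lum and Thy1 were at background in every group. Of 7 goblet markers, Muc5b and Agr2 rose in both genotypes and Muc5ac, Foxa3 and Tff2 were at background, with sums of 1939 to 2876 in scratched against 604 to 1019 in uninjured Mmp7-null cultures, and 4020 to 4442 in scratched against 632 to 766 in uninjured wild-type cultures. Of 9 alveolar markers, 2 fell in Mmp7-null and 1 in wild-type cultures, with sums of 15110 to 19440 in scratched against 21840 to 25790 in uninjured Mmp7-null cultures, and 24290 to 27340 in scratched against 28490 to 29210 in uninjured wild-type cultures. Aqp5 was the brightest alveolar marker, with group means of 13.5 to 13.99. Between genotypes, 5 alveolar markers were lower and 1 higher in scratched Mmp7-null cultures, against 2.92% and 3.29% of all genes. In uninjured Mmp7-null cultures 2 were lower and 1 higher, against 2.5% and 2.3%. Of the fibroblast markers, 2 were higher and 0 lower in Mmp7-null than in wild-type, in uninjured and in scratched cultures. Among goblet, leukocyte and endothelial markers, 1 of each list was lower and 0 higher in scratched Mmp7-null cultures. Basal markers had 1 higher and 1 lower there. In uninjured Mmp7-null cultures 1 basal and 1 endothelial marker were lower, and no goblet or leukocyte marker passed. Of 8 endothelial markers, all but Esam were at background in every group, and Esam fell in wild-type cultures.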

How the data were processed

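RNA of 16 cultures, 4 in each of 4 groups taken from the labels, was hybridised to 1 Affymetrix array each. The deposited table holds linear intensity values, which the authors made with RMA per the submitters' processing notes (background correction, normalization between arrays and a summary per probe set); the version is not given in the sources used here. The labels name the A version of this mouse array, while the table's probe sets are those of the larger full version. Of 45101 probe sets, 64 controls were left out, and of the other 45037, 34945 carried a single gene symbol in the platform annotation, 932 several and 9160 none. The brightest probe set on average stood for each of 18193 genes, with no filter on dim genes.

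Intensities were converted to log2. A limma 3.58.1 model in R 4.3.3 with a mean per group over all 16 arrays (12 residual degrees of freedom) was moderated by eBayes, with two-sided p-values adjusted after Benjamini and Hochberg across the 18193 genes at a threshold of 0.05; probe sets that do not lead a gene were tested in a fit over all single-symbol sets. The number of arrays limits the precision: among genes above background the median standard error was 0.1 for scratch and genotype and 0.14 for the difference of responses. Scripts were tested on simulated data. Arrays of a group correlated at 0.992 or more, and none was a copy of another. Equal replicate numbers showed no general pairing of the cultures: of 24 same-numbered pairs, 4 correlated above 0.1 once group means were removed (median -0.04). The highest r of these pairs, 0.338, was between uninjured and scratched wild-type 3. Such correlations cannot exclude that some cultures shared an animal or a day. The members, lists, comparisons and alternatives were chosen with earlier results of these data known. Named genes are all members with every probe set, up to 4 called genes per list and comparison or all where 5 or fewer were called (a part of these is named in the text), and the 10 genes most like the members; any other list gene named was picked with its values in view. A few list genes, among them Ccnb1 and Rock2, matched no single-symbol probe set and were not analysed here. A list of 8 club cell markers was also read, of which 1 rose with scratching in each genotype. Alternatives were fits on the 8 arrays of the groups compared alone, replicate number or spike-in set as a block, fits within a spike-in set, leaving out single arrays or the 3 that stood apart, removal of the dimmest 40% of genes, the mean of a gene's probe sets, every probe set tested, trended variance, array weights, repeated quantile normalization and arrays centred on their medians.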

Additional observations from a re-analysis of the deposited data

Results flagged for a closer look

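The response to scratching was smaller in Mmp7-null than in wild-type cultures, by the test of the difference itself, for Cep55 (-0.83), Cdca3 (-0.89), the list gene Sgo2a (-0.66) and the second Cdc20 probe set, 1416664_at (-0.69). The last was tested over all probe sets and the others over all genes. Cep55 and Cdca3 did not pass when blocked on spike-in set (adjusted p = 0.0551 and 0.0693) or without the 3 arrays that stood apart (adjusted p = 0.0729 and 0.123), while Sgo2a passed under the block (adjusted p = 0.0429). The second Cdc20 set was fitted neither with the block nor without the 3 arrays.

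In 2 of the 40 groups of 4 values examined, a culture lay apart from the other 3 by Dixon's criterion, about as many as chance flags at 1 in 20. Both were uninjured wild-type culture 4: Ect2 was 8.34 there, against 8.53 to 8.56 in the other 3 cultures, and Anln was 7.99, against 8.05 in the other 3.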

How the results depend on the processing

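Of the 28 called pairs of member and comparison, none changed direction under any alternative, and all 10 wild-type scratch calls held in every alternative except within the Phe set, where 6 did. Counts of members called, out of 10, moved as follows. For scratching in Mmp7-null (8 called) they were 4 with the 8 arrays compared, 2 within Lys and 1 within Phe, and 5 to 9 leaving out single arrays (5 without uninjured Mmp7-null 2). For genotype in uninjured cultures (3) they were 0 when blocked on spike-in set, 0 within Phe and 1 with the mean of a gene's probe sets, and 2 to 3 leaving out single arrays. For genotype in scratched cultures (5) they were 1 with the 8 arrays compared, 1 with the spike-in block, 0 within Phe and 3 with arrays centred on their medians, and 2 to 5 leaving out single arrays (2 without scratched Mmp7-null 1, scratched wild-type 1 or 2, and 3 without scratched Mmp7-null 2). For the difference of responses (2) they were 0 with the spike-in block, within Phe and with centred arrays, 1 without the 3 arrays that stood apart (Anln) and with every probe set tested (Cep55), and 4 with the dimmest 40% of genes removed and with array weights. Leaving out single arrays gave 0 to 2: 2 only without uninjured Mmp7-null 4, 0 without scratched Mmp7-null 2 or 3, uninjured wild-type 1 or 3 or scratched wild-type 1 or 2, and 1 without each other array. Sets of arrays left fewer samples by construction; the other causes were not tested.

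Counts over all genes moved likewise. For scratching in Mmp7-null (859) they were 402 with the 8 arrays, 286 within Lys, 79 within Phe and 516 to 943 leaving out single arrays (516 and 528 without uninjured Mmp7-null 2 and 3). For scratching in wild-type (883) they were 204 within Phe, 418 within Trpn, 1405 with array weights and 591 to 1125 leaving out single arrays. For genotype in uninjured cultures (872) they were 57 with the spike-in block, 42 within Phe, 1310 without the 3 arrays and 480 to 1049 leaving out single arrays (480 without uninjured Mmp7-null 1, 534 without uninjured wild-type 1). For genotype in scratched cultures (1130) they were 527 with the 8 arrays, 252 with the block, 223 within Phe, 1745 with array weights and 809 to 1135 leaving out single arrays. For the difference (24) they were 50 without the 3 arrays, 37 with dim genes removed, 15 with every probe set, 100 with array weights, 49 with quantile normalization repeated, 5 with centred arrays and 8 to 28 leaving out single arrays (12 without uninjured Mmp7-null 3, uninjured wild-type 1 or scratched wild-type 2, 8 without scratched Mmp7-null 3, 15 without scratched Mmp7-null 4 and 14 without scratched wild-type 1).

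With the replicate block the counts of members were 7, 10, 2, 5 and 2 in the order above, 23 of the 28 calls were kept and 3 were gained, and 14 genes were called for the difference. Equal numbers showed no general pairing of the cultures, so this block is given only here.

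Uncalled values near 0 changed sign for genotype in uninjured cultures: Ect2 -0.167 and Birc5 -0.041 with the spike-in block, Ube2c 0.007, Ect2 -0.135 and Racgap1 0.089 within Phe, Racgap1 0.035 with the mean of probe sets, and Ube2c 0.054 and Racgap1 0.07 with array weights. Leaving out single arrays gave them ranges that span 0: -0.129 to 0.044 for Ube2c, -0.051 to 0.106 for Ect2, -0.032 to 0.094 for Birc5 and -0.104 to 0.099 for Racgap1. Racgap1 after scratching in Mmp7-null, just short of the threshold, passed with dim genes removed, the mean of probe sets, trended variance, array weights and repeated quantile normalization. Anapc1 in wild-type cultures became -0.156 with the mean of its probe sets. Nearness to the background bound limits what could be seen through the dim non-leading probe sets. The leading sets of all members had means above the bound.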
